A study of Homo sapiens with 31 samples.

Results

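The TNF ligand and receptor superfamily was followed through the unmixed lines and the mixtures of a colorectal cancer RNA series. Members were chosen by symbol: every TNFSF and TNFRSF gene with a number, and TNF, LTA, LTB, LTBR, CD40, CD27, CD70, NGFR and RELT. The count table held 35 such genes of 17113 in all, of which 11 were ligands and 24 receptors. By the role of the protein, 6 receptors carry a death domain, 3 are decoys, and 15 signal mainly through TRAF adaptors. TNF, LTA, TNFSF11, TNFSF14, TNFRSF6B and TNFRSF13B were not analysed here.

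Total RNA of 4 colorectal adenocarcinoma cell lines, LoVo, LS1034, HT-29 and HCT 116, was sequenced beside that of CCD 841 CoN, labelled as a normal line of the colon. Each of these 5 lines, all untreated and grown in medium with serum, had 3 libraries. In addition, RNA of each cancer line was mixed into CCD 841 CoN RNA at 0.1, 1, 10 and 50%, with 1 library per mixture. The series asked whether the cancer share and the cancer profile can be computed back from such mixtures. Nothing in the labels ties the replicate libraries to separate cultures, so p-values measure the spread between libraries, which may be technical.

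TNF superfamily ligands are mostly trimeric proteins on the cell surface that are shed or act on neighbouring cells. Their receptors fall into those that recruit caspase-activating adaptors through a cytoplasmic death domain, those that recruit TRAF proteins and switch on NF-kB, and decoys that bind ligand without passing on a signal. In the colon the family is known for killing of epithelial cells by TRAIL and TNF, for inflammation, and for talk between stroma and lymphocytes.

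The unmixed libraries held 9688765 to 37418506 counts and the mixtures 13075811 to 56741879. Levels are given as CPM, the counts of a gene scaled to a common library total. Epithelial markers summed to 2394 to 22306 CPM in the libraries of the cancer lines and to 210 to 265 CPM in CCD 841 CoN. KRT18 made up most of the CCD 841 CoN sum, with a mean of 232 CPM. VIL1 and CDH17 had no count there, and in HCT 116 their means were only 0.101 and 0.182 CPM. Fibroblast markers summed to 2.06 to 29 CPM in the cancer lines and to 21997 to 25887 CPM in CCD 841 CoN. With 1 normal line, effects of cancer and of the kind of cell cannot be told apart in any comparison against it. Leukocyte markers summed to at most 8.98 CPM in a cancer library and 12.0 to 48.2 CPM in CCD 841 CoN, with PTPRC and ITGAM at 0 there. Of the CCD 841 CoN sum, the monocyte marker CD14 made up nearly all, at 11.9 to 48.2 CPM, beside at most 8.89 CPM in a cancer library. Fewer cells with a transcript and less of it per cell cannot be told apart in RNA of a whole culture.

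Of the 35 members, 20 reached a mean of 10 CPM in at least 1 line and 7 did so in all 5. Another 7 peaked between 1 and 10 CPM, and 8 stayed under 1 CPM in every line. The last group was made up of LTB, TNFSF8, CD70, TNFRSF4, TNFRSF8, TNFRSF13C, TNFRSF17 and CD27, genes best known from lymphocytes. Except for TNFRSF8 they failed the filter on low counts and were not tested, with 6 to 211 counts in all 31 libraries together. Summed receptor transcripts amounted to 840 CPM in HCT 116, 990 in LoVo, 1157 in HT-29, 1330 in LS1034 and 3143 in CCD 841 CoN. Most of the CCD 841 CoN sum came from TNFRSF11B, TNFRSF12A and TNFRSF10D, with means of 1427, 676 and 350 CPM. Summed ligand transcripts lay between 50.9 CPM in HCT 116 and 75.3 CPM in CCD 841 CoN.

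**Figure D1:**
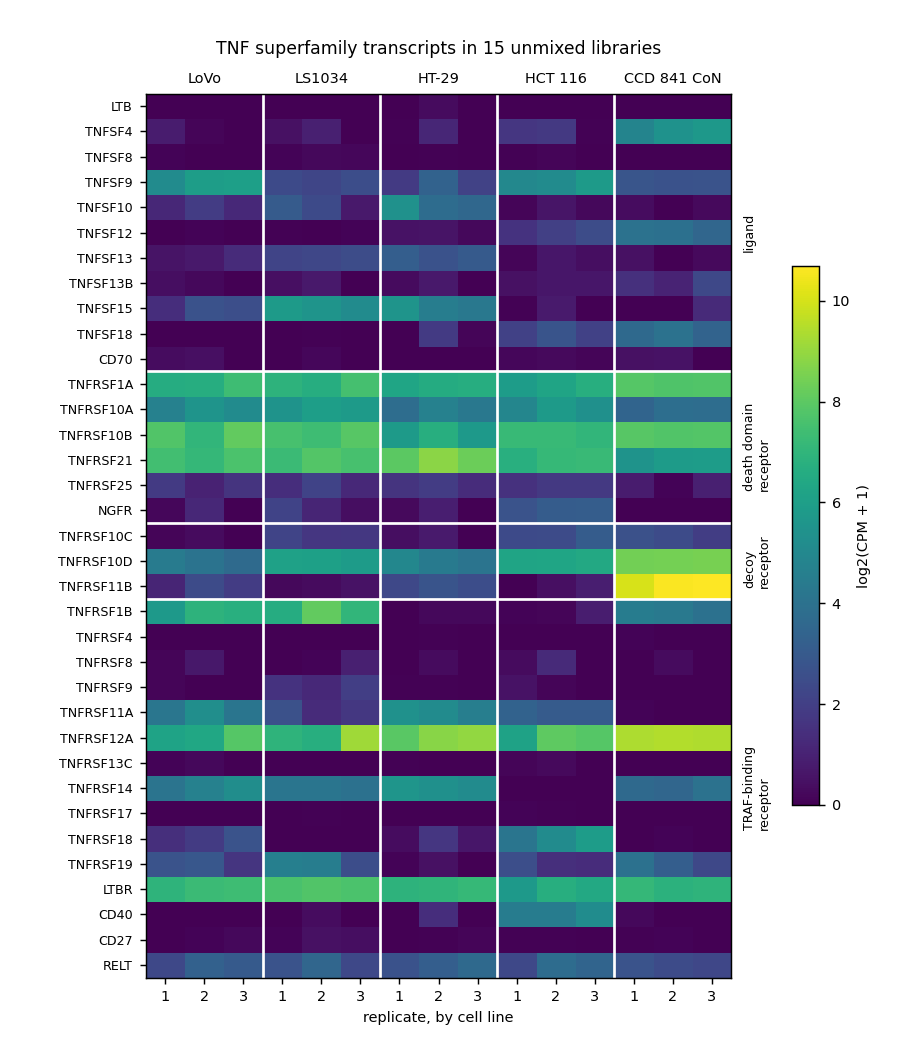
Levels of the 35 members (rows, grouped by role) in the 15 unmixed libraries (columns, by line and replicate), as log2(CPM + 1). TNFRSF11B and TNFRSF12A are brightest in CCD 841 CoN, the 8 members under 1 CPM are dark throughout, and TNFRSF1B, TNFRSF14, TNFRSF18, CD40 and TNFSF15 are bright in some cancer lines and dark in others.

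Per kilobase of exon, so that genes can be set side by side, TNFRSF11B (osteoprotegerin, a secreted decoy for RANK ligand and TRAIL) led in CCD 841 CoN with 505 CPM per kb. TNFRSF12A, the TWEAK receptor Fn14, followed there with 366 CPM per kb. TNFRSF12A led in all 4 cancer lines, with 70.1 CPM per kb in LoVo, 102 in HCT 116, 144 in LS1034 and 215 in HT-29. TNFRSF21, the death receptor DR6, came second in each of them with 36.4 to 94.4 CPM per kb. The order in LoVo rested on replicate 3: without it TNFRSF12A had 41.7 and TNFRSF21 43.4 CPM per kb. Without LS1034 replicate 3 TNFRSF12A fell to 60.6 CPM per kb in LS1034, beside 52.3 for TNFRSF21. The member with the highest level was a receptor in every line, also with any 1 library left out.

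Each cancer line, and the mean of the 4 log2 fold changes, was compared with CCD 841 CoN to ask which members separate the cancer RNA from the normal RNA. A gene was called at an adjusted p below 0.05 with at least a 2-fold change (edgeR quasi-likelihood test, Benjamini-Hochberg adjustment over all genes tested). Of 28 members tested, 9 were higher and 12 lower in the mean of the 4 lines (75%), where 47.1% of all genes tested were called, 24.8% higher and 22.3% lower. The median log2 fold change of the members was 0.10, beside 0.22 over all genes. Single lines gave 9 higher and 9 lower in LoVo, beside 26.5 and 21.6% of all genes (48% called). LS1034 gave 9 and 6, beside 25.7 and 21.4% (47.1%). HT-29 gave 7 and 11, beside 24.7 and 20.9% (45.7%), and HCT 116 gave 6 and 10, beside 25.4 and 21.2% (46.7%). These comparisons share the CCD 841 CoN libraries. TNFRSF11A was the 1 member higher in all 4 lines, and TNFRSF10D, TNFRSF11B, TNFSF12 and TNFSF4 were the 4 members lower in all of them. Over all genes tested, 11% were higher and 10.9% lower in all 4. LTBR, RELT, TNFRSF25 and TNFRSF8 were called in no single line, so 85.7% of the members were called in at least 1, beside 73.6% of all genes.

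**Figure D2:**
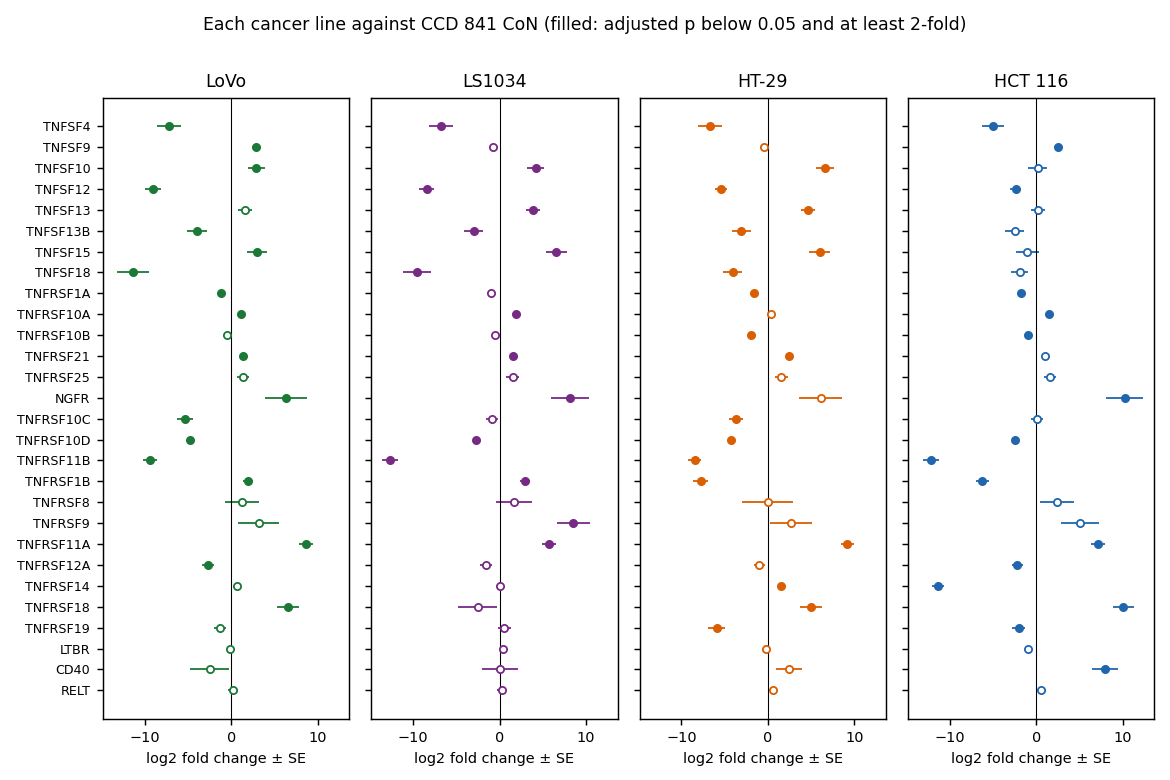
Log2 fold change of the 28 tested members in each cancer line against CCD 841 CoN; bars are SE, filled points were called at an adjusted p below 0.05 and at least 2-fold. TNFRSF11B lies far to the left in all 4 lines and TNFRSF11A to the right, while TNFRSF1B and TNFRSF14 change side between lines.

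All 8 tested ligands were called in the mean of the 4 lines, beside 47.1% of all genes. Of the ligands, 4 were higher (TNFSF9, TNFSF10, TNFSF13 and TNFSF15) and 4 lower (TNFSF4, TNFSF12, TNFSF13B and TNFSF18). TNFSF4 (OX40 ligand, which costimulates T cells) stood at 27.3, 43.1 and 51.4 CPM in the 3 CCD 841 CoN libraries. In the cancer lines it ran from 0 to 2.38 CPM, the highest values being 2.24 and 2.38 CPM in HCT 116. No cancer library overlapped with CCD 841 CoN, and the mean log2 fold change was -6.40 ± 0.75 (SE, adjusted p = 1.76e-06).

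TNFSF18 (GITR ligand, a costimulator of T cells) stood at 11.6, 15.3 and 9.60 CPM in CCD 841 CoN and at 3.15, 5.82 and 3.19 CPM in HCT 116. LoVo gave no count, which places it at least 303-fold lower at a limit of 3 counts over the group. LS1034 gave 1 count, a ratio of 870 with a 95% counting interval of 156 to 34369. In HT-29 the libraries held 0, 2.49 and 0.0926 CPM, so that replicate 2 carried nearly all of its counts. HCT 116 did not pass the test (log2 fold change -1.91 ± 1.00, adjusted p = 0.121), and the other lines did.

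TNFSF4 and TNFSF18 are neighbours on chromosome 1 and were both low in the cancer lines, so the 250 bases before an annotated start of each are shown (RefSeq, GRCh38.p14, read 5′ to 3′ on the strand of the gene). Capitals mark CG dinucleotides, the sites of DNA methylation. The counts themselves were made on hg19, and methylation was not measured.
TNFSF4, chr1:173205533-173205782, minus strand: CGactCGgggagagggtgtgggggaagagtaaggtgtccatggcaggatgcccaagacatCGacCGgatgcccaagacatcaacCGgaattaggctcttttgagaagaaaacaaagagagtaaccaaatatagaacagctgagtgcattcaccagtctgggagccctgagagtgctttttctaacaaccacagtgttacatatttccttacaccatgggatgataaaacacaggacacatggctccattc
TNFSF18, chr1:173050942-173051191, minus strand: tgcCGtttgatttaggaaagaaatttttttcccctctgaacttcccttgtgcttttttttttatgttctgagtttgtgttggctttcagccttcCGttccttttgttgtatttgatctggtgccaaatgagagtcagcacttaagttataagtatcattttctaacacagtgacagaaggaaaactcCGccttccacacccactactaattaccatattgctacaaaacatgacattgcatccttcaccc
The TNFSF4 window held 5 CG dinucleotides and the TNFSF18 window 3, beside a median of 11 over all 35116 windows of this length. Windows were found for 21 of the 35 members. Those of TNFSF10 and TNFSF15 held 2 each and that of TNFSF9 held 23. Whether CG content bears on the levels was not tested. In GENCODE v29 the TNFSF4 gene extends to 173207313, so a start upstream of the window shown is also annotated.

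TNFSF12 (TWEAK, the ligand of TNFRSF12A) stood at 15.5, 14.4 and 10.4 CPM in CCD 841 CoN and at 2, 3.11 and 4.58 CPM in HCT 116. HT-29 held 0.185 to 0.481 CPM, LS1034 3 counts and LoVo 2 counts in all. The ratio was 503 in LoVo (counting interval 139 to 4153), 321 in LS1034 (110 to 1557), 37.2 in HT-29 and 4.16 in HCT 116. All 4 lines passed the test, with adjusted p-values from 6.24e-07 in LoVo to 0.00371 in HCT 116. Exons of TNFSF12 overlap a read-through transcript with TNFSF13 over 29.4% of their length, and those of TNFSF13 over 55.5%, so reads may be shared between these genes. TNFSF13B (BAFF, a survival factor of B cells) was low everywhere, at 1.11 to 4.03 CPM in CCD 841 CoN and at most 0.682 CPM in a cancer library (-3.11 ± 0.73, adjusted p = 0.00167).

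Among the ligands higher in cancer lines, TNFSF15 (TL1A, the ligand of death receptor 3) stood at 56.2, 45.4 and 34.2 CPM in LS1034 and at 45.2, 22.4 and 18.6 CPM in HT-29. LoVo held 1.60, 5.43 and 4.94 CPM, and HCT 116 0.0303, 0.728 and 0 CPM, beside 0, 0 and 1.44 CPM in CCD 841 CoN. Thus LS1034 and HT-29 lay above all other libraries, and HCT 116 overlapped with CCD 841 CoN. The log2 fold change was 6.59 ± 1.20 in LS1034 (adjusted p = 2.39e-04) and 5.97 ± 1.18 in HT-29 (adjusted p = 5.02e-04). The call in LoVo (3 ± 1.13, adjusted p = 0.0337) was lost with DESeq2 (2.60), and without any 1 of 5 libraries. The call in the mean of the 4 lines (3.63 ± 1.05, adjusted p = 0.00732) was lost without HCT 116 replicate 2 (2.74).

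TNFSF10 (TRAIL, which triggers death through TNFRSF10A and TNFRSF10B) was highest in HT-29 with 41.5, 12.6 and 11.0 CPM. LS1034 held 7.36, 4.33 and 0.672 CPM, LoVo 1.26 to 2.74 CPM, HCT 116 0.0908 to 0.534 CPM and CCD 841 CoN 0 to 0.284 CPM. HT-29 did not overlap with any other line, and it was called against CCD 841 CoN (6.62 ± 1.03, adjusted p = 5.84e-05) and against the mean of the other 3 cancer lines (4.20 ± 0.57, adjusted p = 4.04e-05). TNFSF13 (APRIL, a ligand of B-cell receptors) had the same order of lines, with 5.41 to 8.25 CPM in HT-29, 3.62 to 4.55 in LS1034, 0.481 to 1.51 in LoVo, 0.121 to 0.582 in HCT 116 and 0 to 0.406 in CCD 841 CoN.

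TNFSF9 (4-1BB ligand, a costimulator of T cells) went with other lines. It stood at 34.3, 60.4 and 64.7 CPM in LoVo and at 30.5, 34.9 and 56.1 CPM in HCT 116, but at 3.75 to 4.70 CPM in LS1034, 2.51 to 9.38 in HT-29 and 5.40 to 6.05 in CCD 841 CoN. LoVo (2.87 ± 0.45, adjusted p = 5.45e-05) and HCT 116 (2.52 ± 0.44, adjusted p = 1.83e-04) were called, and the other lines were not. The call in the mean of the 4 lines (1.06 ± 0.36, adjusted p = 0.0183) sat at the 2-fold limit and ended with DESeq2 (0.92) and without any 1 of 8 libraries.

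**Figure D3:**
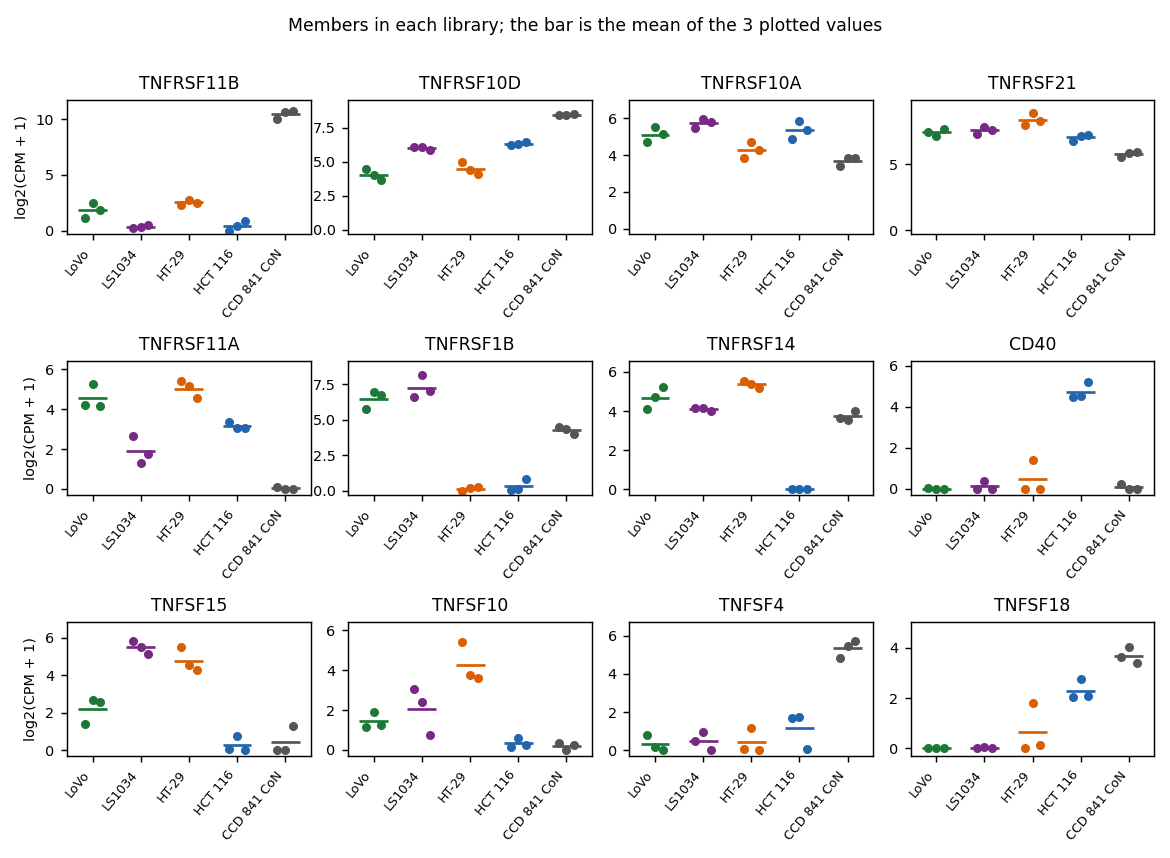
Values of 12 members in every unmixed library, as log2(CPM + 1), by line; points are libraries and the bar is their mean. CD40 is present in HCT 116 (21.1 to 36.1 CPM), TNFRSF14 has no count in it, and TNFRSF1B is near 0 in HT-29 and HCT 116.

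Of the 6 death domain receptors, 4 were higher in the mean of the 4 lines (TNFRSF21, TNFRSF10A, TNFRSF25 and NGFR), TNFRSF1A was lower, and TNFRSF10B did not pass the 2-fold limit. Over all genes, 24.8% were higher and 22.3% lower. TNFRSF21 (DR6, a death receptor of neurons and lymphocytes) stood at 254, 455 and 309 CPM in HT-29, 138 to 200 in LoVo, 153 to 223 in LS1034, 104 to 148 in HCT 116, and 44.5, 56.9 and 59.3 in CCD 841 CoN. Every cancer library lay above CCD 841 CoN (mean log2 fold change 1.57 ± 0.23, adjusted p = 2.34e-05), although HCT 116 alone stayed just under the 2-fold limit (0.98 ± 0.26, adjusted p = 0.00537). TNFRSF10A (TRAIL receptor 1) stood at 43.6, 62.6 and 55.6 CPM in LS1034, 29, 56.2 and 39.6 in HCT 116, 25, 45.0 and 34.1 in LoVo, and 13.2, 24.9 and 18.4 in HT-29. CCD 841 CoN held 9.74 to 13.4 CPM, which touched HT-29 only. The mean log2 fold change was 1.23 ± 0.27 (adjusted p = 8.63e-04).

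TNFRSF10B (TRAIL receptor 2) stood at 221 to 239 CPM in CCD 841 CoN and had its lowest values in HT-29, with 56.2, 104 and 52.3 CPM (-1.96 ± 0.32, adjusted p = 9.92e-05). HCT 116 held 131 to 148 CPM (-1.01 ± 0.31, adjusted p = 0.0133), a call at the 2-fold limit that ended when library size alone set the scale (-0.70) and without HCT 116 replicate 3 (-0.96) or CCD 841 CoN replicate 1 (-0.97). In the mean of the 4 lines TNFRSF10B stayed just under the limit (-0.97 ± 0.23, adjusted p = 0.00186), and passed it with DESeq2 (-1.12), with DESeq2 size factors (-1.12), with the 0.1% mixtures as control (-1.08), and without any 1 of 10 libraries (-1.14 to -1). LoVo at 131 to 279 and LS1034 at 163 to 242 CPM overlapped with CCD 841 CoN and were not called. TNFRSF1A, the main TNF receptor of non-immune cells, held 214 to 231 CPM in CCD 841 CoN and 58.9 to 183 CPM in the cancer lines, with no overlap. The mean log2 fold change was -1.38 ± 0.22 (adjusted p = 5.71e-05).

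NGFR, the p75 neurotrophin receptor, had no count in CCD 841 CoN. HCT 116 held 5.72, 7.62 and 7.86 CPM, at least 108-fold higher at 3 counts over the group (adjusted p = 0.00109), and LS1034 held 3.42, 1.12 and 0.299 CPM, at least 24.7-fold higher (adjusted p = 0.00693). LoVo held 0.134, 1.29 and 0 CPM, and its call (adjusted p = 0.0410) ended without any 1 of 7 libraries. HT-29 held 0.209, 0.882 and 0 CPM and was not called. A gene on the opposite strand covers 22.3% of the exon length of NGFR, and the strand setting of the counting is not given. TNFRSF25 (death receptor 3, bound by TNFSF15) held 1.01 to 3.37 CPM in the cancer lines and 0.0857 to 0.929 CPM in CCD 841 CoN. Its call in the mean of the 4 lines (1.5 ± 0.61, adjusted p = 0.0454) ended with the replicate number as a block (1.54, adjusted p = 0.0507) and without any 1 of 12 libraries.

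All 3 decoys were lower in the mean of the 4 lines, beside 22.3% of all genes. TNFRSF11B, the secreted decoy named above, stood at 1049, 1588 and 1642 CPM in CCD 841 CoN. The cancer libraries ranged from 0 CPM in an HCT 116 library to 5.81 CPM in an HT-29 library, with no overlap. By ratio of means the difference was 295-fold in HT-29, 512-fold in LoVo, 3512-fold in HCT 116 and 4903-fold in LS1034. The mean log2 fold change was -10.66 ± 0.44 (adjusted p = 6.81e-12). Within the cancer lines, HT-29 was above the mean of the other 3 (2.95 ± 0.47, adjusted p = 1.72e-04).

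TNFRSF10D, the TRAIL decoy with a truncated death domain, stood at 337, 350 and 363 CPM in CCD 841 CoN. HCT 116 held 74.4, 75.9 and 85.0 CPM and LS1034 68.0, 65.8 and 56.8, while HT-29 held 30.1, 20.2 and 16.1 and LoVo 20.7, 15.6 and 11.9. The cancer lines therefore formed an upper and a lower pair, both below CCD 841 CoN (-3.55 ± 0.17, adjusted p = 6.09e-11). TNFRSF10C, the lipid-anchored TRAIL decoy, was low everywhere. It held 2.79 to 5.28 CPM in CCD 841 CoN, 4.27 to 7.59 in HCT 116, 2.21 to 3.62 in LS1034, and at most 0.722 in HT-29 and LoVo. LoVo and HT-29 were called lower than CCD 841 CoN, and each was also called lower than LS1034 and HCT 116 (adjusted p = 3.30e-04 to 0.0136). LS1034 and HCT 116 overlapped with CCD 841 CoN and were not called (adjusted p = 0.304 and 0.949). HCT 116 had the higher mean, 5.41 against 4.15 CPM, so the lower call in the mean of the 4 lines did not hold for every line. How reads matching both TNFRSF10C and TNFRSF10D were counted is not given in the sources used here, so the split between these similar genes is uncertain. On the same strand, a noncoding gene overlaps 26.0% of the exon length of TNFRSF10C and a protein-coding gene 13.3%.

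The 4 TRAIL receptor genes lie side by side on chromosome 8, yet TNFRSF10A was higher and TNFRSF10C and TNFRSF10D were lower in the mean of the 4 cancer lines. For TNFRSF10C only LoVo and HT-29 were called alone. Among the TRAIL receptor transcripts per kilobase, both decoys made up 66.4, 68.2 and 68.1% in the CCD 841 CoN libraries (67.5 ± 1.01%, SD, n = 3). The share was 37.7 ± 4.32% in HCT 116, 25.8 ± 4.44% in LS1034, 25.1 ± 9.73% in HT-29 and 8.47 ± 3.12% in LoVo. No cancer library exceeded 42.0%. This share was formed after the values had been seen and is given without a test.

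Of the 11 tested TRAF-binding receptors, TNFRSF11A was the 1 member higher in the mean of the 4 lines, beside 24.8% of all genes. TNFRSF12A, TNFRSF14, TNFRSF19 and TNFRSF1B were lower in it, beside 22.3% of all genes. TNFRSF18 (4.78) was not called in this mean, but was called higher with DESeq2 (4.85). Likewise TNFRSF9 (4.85) was called when library size alone set the scale (4.86), with the 0.1% mixtures as control (3.11) and without HCT 116 replicate 3 (4.98). TNFRSF11A (RANK, the receptor of osteoclast and mammary development) stood at 41.1, 34.2 and 22.5 CPM in HT-29, 17.5, 37.3 and 16.6 in LoVo, 7.28 to 9.23 in HCT 116 and 1.5 to 5.23 in LS1034. CCD 841 CoN gave 2 counts in 3 libraries. The ratio was 749 in HT-29 (counting interval 207 to 6188), 547 in LoVo (151 to 4515), 183 in HCT 116 (50.7 to 1514) and 69.3 in LS1034 (19.2 to 572). Adjusted p-values ran from 9.31e-08 in HT-29 to 1.63e-05 in LS1034. RANK was thus higher in the cancer lines, and TNFRSF11B, the decoy for its ligand, was higher in CCD 841 CoN.

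TNFRSF1B (TNF receptor 2, typical of immune cells) split the cancer lines. It stood at 97.9, 275 and 129 CPM in LS1034 and 53.2, 120 and 106 in LoVo, above the 21.1, 18.9 and 14.9 CPM of CCD 841 CoN. HT-29 held 0 to 0.185 CPM and HCT 116 0.0606 to 0.786 CPM, below it, with no overlap. Against CCD 841 CoN the log2 fold change was 2.89 ± 0.58 in LS1034 (adjusted p = 5.77e-04) and 1.99 ± 0.56 in LoVo (adjusted p = 0.00713), but -7.76 ± 0.86 in HT-29 (adjusted p = 1.54e-06) and -6.23 ± 0.74 in HCT 116 (adjusted p = 3.89e-06). The lower call in the mean of the 4 lines (-2.28 ± 0.44) is a mean of log values: mean CPM was higher in the cancer lines, at 65.2 against 18.3.

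TNFRSF14 (HVEM, which binds LIGHT and BTLA) had no count in any HCT 116 library. HT-29 held 45.9, 40.7 and 34.8 CPM, LoVo 16, 25.1 and 36.5, LS1034 16.6, 16.6 and 15, and CCD 841 CoN 11.5, 10.5 and 15.2. HCT 116 was therefore at least 311-fold lower than CCD 841 CoN (adjusted p = 1.43e-08), and HT-29 was higher than it (1.46 ± 0.34, adjusted p = 0.00221). LoVo and LS1034 were not called. An antisense gene on the opposite strand covers 13.4% of the exon length of TNFRSF14, and the strand setting of the counting is not given in the sources used here. Again the lower call in the mean of the 4 lines (-2.27 ± 0.32) went with a higher mean CPM, 20.6 against 12.4. Only 2 of the 28 members were called in opposite directions in different lines, 7.14%, beside 3.34% of all genes tested, and TNFRSF1B and TNFRSF14 were these.

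The windows before an annotated start of these 2 genes are shown because they were the members that differed in direction between lines. Capitals again mark CG dinucleotides (RefSeq, GRCh38.p14).
TNFRSF14, chr1:2556121-2556370, plus strand: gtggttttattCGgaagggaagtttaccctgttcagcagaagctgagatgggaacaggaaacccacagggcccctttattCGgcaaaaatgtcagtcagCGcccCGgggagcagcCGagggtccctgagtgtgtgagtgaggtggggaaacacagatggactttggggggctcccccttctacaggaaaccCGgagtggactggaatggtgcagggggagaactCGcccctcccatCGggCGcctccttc
TNFRSF1B, chr1:12166741-12166990, plus strand: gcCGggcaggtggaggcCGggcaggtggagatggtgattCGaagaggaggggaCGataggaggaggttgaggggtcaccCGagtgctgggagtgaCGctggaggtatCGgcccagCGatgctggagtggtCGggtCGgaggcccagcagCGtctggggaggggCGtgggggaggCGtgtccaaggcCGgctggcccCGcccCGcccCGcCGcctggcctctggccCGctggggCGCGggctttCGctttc
The TNFRSF14 window held 9 CG dinucleotides and the TNFRSF1B window 22. In GENCODE v29 TNFRSF14 begins at 2555639, so a start upstream of its window is also annotated. Over the 26 windows of members the median was 7.

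TNFRSF9 (4-1BB, the receptor of TNFSF9) was detected in LS1034 at 1.99, 1.33 and 2.99 CPM, at least 32.2-fold above CCD 841 CoN (adjusted p = 0.00196), which had no count. The other cancer lines held at most 0.424 CPM.

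TNFRSF18 (GITR, the receptor of TNFSF18) and CD40 (the receptor of T-cell help on B cells and epithelia) marked HCT 116. TNFRSF18 stood at 17.0, 34.9 and 58.8 CPM in HCT 116, 1.74 to 5.58 in LoVo and 0.278 to 2.21 in HT-29, with no count in LS1034 and 1 in CCD 841 CoN. It was called higher than in CCD 841 CoN in HCT 116 (ratio 1699, counting interval 305 to 67095), LoVo (153, 27.4 to 6039) and HT-29 (46.6, 8.36 to 1841). CD40 stood at 21.1, 21.6 and 36.1 CPM in HCT 116. All other unmixed libraries held at most 0.291 CPM, except HT-29 replicate 2 with 1.60 CPM. HCT 116 was 486-fold higher than CCD 841 CoN (adjusted p = 3.56e-04) and was called against the mean of the other 3 cancer lines (7.97 ± 0.92, adjusted p = 5.91e-06). HT-29 replicate 2 also held the highest HT-29 value of TNFSF18, and of TNFSF4 with 1.24 CPM beside 0.0348 and 0.

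TNFRSF12A (Fn14, the receptor of TNFSF12) stood at 664, 691 and 672 CPM in CCD 841 CoN. It varied widely within lines: LoVo held 72.6, 81.7 and 234 CPM, LS1034 122, 102 and 577, HCT 116 69.6, 263 and 232, and HT-29 250, 446 and 496. All cancer libraries lay below CCD 841 CoN. The mean log2 fold change was -1.86 ± 0.45 (adjusted p = 0.00196), but LS1034 (adjusted p = 0.0507) and HT-29 (adjusted p = 0.196) were not called alone. TNFRSF19 (TROY, a Wnt target of intestinal stem cells) stood at 23.2, 21.8 and 4.78 CPM in LS1034 and at most 0.401 CPM in HT-29, with 14.9, 8.23 and 3.92 in CCD 841 CoN. Only its low level in HT-29 (-5.91 ± 0.96, adjusted p = 8.53e-05) and in HCT 116 (-2.04 ± 0.76, adjusted p = 0.0325) was called, and the call in HCT 116 ended without any 1 of 4 libraries.

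LTBR, the lymphotoxin beta receptor, held 115 to 138 CPM in CCD 841 CoN. LS1034 lay above this without overlap, at 196 to 222 CPM (0.44 ± 0.24, adjusted p = 0.132), and HCT 116 below it without overlap, at 51.8 to 104 CPM (-0.96 ± 0.24, adjusted p = 0.00306, under the 2-fold limit). LoVo and HT-29 overlapped with CCD 841 CoN. With lines on both sides, the mean log2 fold change was -0.21 ± 0.18 (adjusted p = 0.340). Between cancer lines, LS1034 was higher than HCT 116 (1.40 ± 0.24, adjusted p = 2.63e-04). RELT, a receptor of lymphoid tissue, held 3.82 to 12.5 CPM in the unmixed libraries and was called in none of the comparisons.

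Members were then compared between cancer lines, where the normal line plays no part in the contrast. Against the mean of the other 3, 6 members were higher and 4 lower in LoVo, beside 12.9 and 8.6% of all genes (21.5% called). In LS1034 8 were higher and 5 lower, beside 13.8 and 10.9% (24.7%), and in HT-29 8 and 5, beside 13.1 and 9.99% (23.1%). In HCT 116 8 were higher and 6 lower, beside 14.6 and 12.4% (27%). As shares of the 28 members these were 35.7, 46.4, 46.4 and 50.0%. LoVo was higher in TNFRSF1B (5.69 ± 0.47, adjusted p = 2.47e-07) and TNFSF9 (2.41 ± 0.31, adjusted p = 2.40e-05) and lower in TNFRSF10D (-1.62 ± 0.23, adjusted p = 7.50e-05). In each of these genes LoVo overlapped with another cancer line and was not called against it. LS1034 had the higher mean of TNFRSF1B (0.90 over LoVo, adjusted p = 0.236). LoVo exceeded HCT 116 in TNFSF9 by 0.36 (adjusted p = 0.577), and HT-29 exceeded LoVo in TNFRSF10D by 0.53 (adjusted p = 0.134). LS1034 had its largest higher value in TNFRSF1B (6.90 ± 0.48, adjusted p = 2.30e-08) and was also higher in TNFRSF19 (3.64 ± 0.56, adjusted p = 9.88e-05). For TNFRSF19, LS1034 replicate 3 with 4.78 CPM overlapped with LoVo. HT-29 was higher in TNFRSF14 (4.97 ± 0.32, adjusted p = 5.79e-08) and TNFRSF11A (2.03 ± 0.35, adjusted p = 3.41e-04). Against LoVo alone, HT-29 overlapped in both genes and was not called (0.73, adjusted p = 0.109, and 0.56, adjusted p = 0.389). The mean of the other 3 is one of log values, and HCT 116 had no count of TNFRSF14. HCT 116 led in CD40, TNFRSF18 (7.08 ± 0.64, adjusted p = 1.39e-06) and TNFSF12 (5.23 ± 0.52, adjusted p = 1.39e-06).

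By role, none of the 6 death domain receptors was called in LoVo or in LS1034 against the other 3 lines in edgeR, where 1 and 3 had an unadjusted p below 0.05. In HT-29 TNFRSF21 was higher (1.12 ± 0.20) and TNFRSF10A (-1.12 ± 0.27) and TNFRSF10B (-1.31 ± 0.28) were lower, and in HCT 116 NGFR was higher (3.38 ± 0.80). The TNFRSF21 call ended without HT-29 replicate 2 (0.86) and the TNFRSF10A call without HT-29 replicate 1 (-0.95). All 3 decoys were called in LoVo, LS1034 and HCT 116, and 1 of them in HT-29. The TNFRSF11B call ended in LoVo without replicate 2 (1.20, adjusted p = 0.144), in LS1034 without replicate 1 (-2.30, adjusted p = 0.0572), and in HCT 116 without replicate 1 (-1.36, adjusted p = 0.0591) or 2 (-1.94, adjusted p = 0.0736). With only the compared groups fitted it ended in LoVo (adjusted p = 0.0871) and HCT 116 (adjusted p = 0.0898). The TNFRSF10C call in LS1034 ended without replicate 1 (1.86, adjusted p = 0.0540). TNFSF18 in HT-29 was called higher than the mean of log values of the other 3 (3.54), although every HCT 116 library (3.15 to 5.82 CPM) lay above every HT-29 library. Its direction turned without HT-29 replicate 2 (-1.19), and the call ended with a replicate block over the cancer lines (2.62).

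The 6 pairs of cancer lines gave 77 calls of members in all. Between LoVo and LS1034 32.1% of the members were called, beside 26% of all genes, between LoVo and HT-29 39.3%, beside 27.2%, and between LoVo and HCT 116 46.4%, beside 22.1%. Between LS1034 and HT-29 50% were called, beside 22.6%, between LS1034 and HCT 116 50%, beside 32.9%, and between HT-29 and HCT 116 57.1%, beside 30.6%.

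The mixtures show how far these levels carry into RNA that is mostly CCD 841 CoN. The 50% mixtures were compared with the 0.1% mixtures over the 4 lines, with the line as a term and the adjusted p alone as the threshold. Of 24 members tested, 7 were higher and 8 lower at 50%, beside 30.1 and 24.1% of all genes (54.2% called). The members higher at 50% were the ligands TNFSF9 (1.23), TNFSF13 and TNFSF15 and the receptors TNFRSF10A (1.00 ± 0.24), TNFRSF21 (1.49 ± 0.14), TNFRSF11A (3.05 ± 0.77) and NGFR. Those lower were TNFSF4 (-1 ± 0.14), TNFSF12 (-1.05 ± 0.17), TNFSF18 (-1.13 ± 0.22), TNFRSF1A (-0.42 ± 0.09), TNFRSF10D (-1.03 ± 0.08), TNFRSF11B, TNFRSF12A (-0.46 ± 0.08) and TNFRSF19 (-1.24 ± 0.16), all 8 of which were also lower in the mean of the 4 unmixed lines. TNFRSF19 did not follow the unmixed means with LS1034. There it fell from 13.1 CPM at 0.1% to 6.14 at 50%, although unmixed LS1034 averaged 16.6 CPM against 9.03 in CCD 841 CoN, a difference not called. Without 1 line the calls of TNFSF9 (LoVo or HCT 116), TNFSF13 (LS1034 or HT-29), TNFRSF11A (HT-29) and NGFR (LoVo) ended. At 10%, 2 were higher and 1 lower, beside 6.21 and 1.18% of all genes (7.39% called). The 3 called at 10% were TNFSF15, TNFRSF21 (0.50 ± 0.14, adjusted p = 0.0484) and TNFRSF11B (-0.20 ± 0.05, adjusted p = 0.0266). The TNFRSF21 call ended without LoVo, LS1034 or HT-29, the TNFRSF11B call without any 1 of the 4 lines, and the TNFSF15 call without LS1034 (adjusted p = 0.0764).

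TNFRSF11B fell with the cancer share. Its level was 1020 to 1053 CPM in the 4 mixtures at 0.1%, 865 to 959 at 10% and 442 to 550 at 50% (-1.19 ± 0.05 for 50% against 0.1%, adjusted p = 1.21e-09). A level computed from the unmixed libraries gave 1425 CPM at 0.1%, above all 4 observed values. The 0.1% mixtures lay near CCD 841 CoN replicate 1, with 1049 CPM, and below replicates 2 and 3, with 1588 and 1642 CPM. Over all genes, chi-square per degree of freedom was 5.32 to 9.24 between these mixtures and replicate 1, and 23.9 to 37.5 between them and the other replicates. The same held for TNFSF4, TNFRSF21, TNFRSF10C, TNFRSF12A and TNFRSF19 in that the 4 mixtures lay outside the range of replicates 2 and 3. For the other members at 1 CPM or more in CCD 841 CoN it did not hold. The share over all genes was not computed, so this is not a trait of the members.

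With replicate 1 as the only control, so with fewer libraries, TNFRSF11B and TNFRSF10D kept their calls in all 4 lines. Calls that ended were TNFRSF1B in LoVo (1.70, adjusted p = 0.192) and LS1034 (2.64, adjusted p = 0.0609), TNFRSF14 in HT-29 (1.49, adjusted p = 0.0643), TNFSF10, TNFSF13, TNFRSF9 and NGFR in LS1034, TNFSF10 and TNFRSF10A in LoVo, TNFSF4, TNFRSF10B and TNFRSF12A in HCT 116, and TNFSF18 in HT-29. TNFRSF10B in the mean of the 4 lines passed the 2-fold limit with this control (-1.12, adjusted p = 0.0379). TNFSF13B and NGFR ended in every line in which they had been called except NGFR in HCT 116. In the mean of the 4 lines TNFSF9, TNFSF10 (2.77), TNFSF13 (1.67), TNFSF13B, NGFR and TNFRSF25 (1.06) ended.

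**Figure D4:**
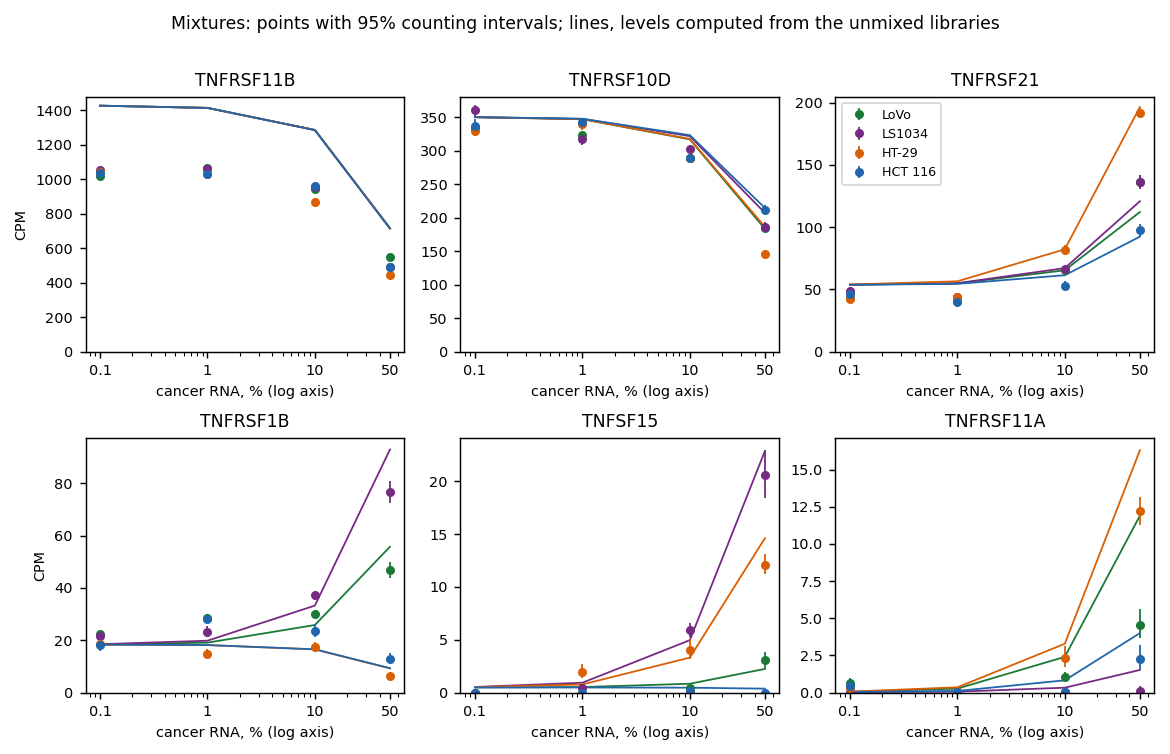
Levels of 6 members in the mixtures (points, CPM with 95% exact Poisson intervals that cover counting error only) against the percentage of cancer RNA on a log axis, by line; curves are levels computed from the unmixed libraries. TNFRSF11B lies under its curves at all percentages, TNFRSF21 is at 0.976 to 1.22 times its curves at 50%, and TNFRSF11A lies under them at 50%.

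TNFSF15 had no count in any 0.1% mixture, which allows at most 0.229 CPM in the shallowest of them at 3 counts. At 10% it reached 5.92 CPM with LS1034 and 4.06 with HT-29, and at 50% 20.6 and 12.1 CPM. In the HCT 116 mixture at 50% it had no count. TNFRSF1B followed the opposite levels of the lines: at 50% it was 76.5 CPM with LS1034 and 46.8 with LoVo, but 12.9 with HCT 116 and 6.31 with HT-29. TNFRSF14 at 50% was 25.4 CPM with HT-29 and 6.85 with HCT 116, where 6.2 was computed from a line without a count. CD40 was seen in the HCT 116 mixtures at 0.262 CPM (1%), 3.17 CPM (10%) and 15.2 CPM (50%), beside 0.316, 2.68 and 13.2 computed. At 0.1% it had no count with HCT 116 or HT-29, but 0.408 CPM with LoVo and 0.290 CPM with LS1034. Unmixed LoVo held 1 count in all and LS1034 7. CCD 841 CoN, which makes up most of these mixtures, held 4 counts, all in replicate 1 (0.162 CPM).

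Over the members computed at 10 CPM or more, the median ratio of observed to computed level at 50% was 1.10 with LoVo, 1.00 with HCT 116, 0.900 with LS1034 and 0.829 with HT-29. The median of these 4 values was 0.952 and their SD 0.120. TNFRSF11A was below its computed level with all 4, at 4.58 CPM for a computed 11.9 with LoVo, 0.124 for 1.52 with LS1034, 12.2 for 16.3 with HT-29 and 2.28 for 4 with HCT 116. Its counts at 0.1% were 27, 1, 6 and 6 in the same order of lines, more than the 1, 0, 2 and 2 at 1%, so low TNFRSF11A counts did not follow the cancer share. TNFRSF10B with LoVo at 50% was 283 CPM, above every unmixed library of LoVo and CCD 841 CoN, and with LS1034 it was 254 CPM, likewise above those of LS1034 and CCD 841 CoN.

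Lists of genes around the receptors were counted in the mean of the 4 lines, where 24.8% of all genes were higher and 22.3% lower (47.1% called). Of 22 adaptors and TRAF genes tested, 3 were higher (13.6%) and 4 lower (18.2%), so 31.8% were called (median log2 fold change 0.04, beside 0.22 over all genes). TAB3, a subunit of the TAK1 kinase complex (1.72 ± 0.49), TRAF5 (1.10 ± 0.27) and TRAF4 (1.03 ± 0.32) were higher, and CYLD, a deubiquitinase that restrains NF-kB (-1.41 ± 0.27), TRADD, the adaptor of TNFRSF1A (-1.32 ± 0.28), BIRC2 (-1.02 ± 0.27) and TRAF1 (-1.67 ± 0.44) lower. Of 9 core NF-kB genes, REL was higher (13.5 ± 4.18 against 2.20 ± 0.891 CPM, SD), IKBKB and RELB were lower, and 6 were not called (33.3% called, median -0.51).

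Of 20 genes known to be induced by TNF through NF-kB, 3 were higher (15%, beside 24.8% of all genes) and 10 lower (50%, beside 22.3%), with a median of -1.37. Those named as lower had the largest changes among genes at 10 CPM or more. VCAM1, an adhesion molecule for leukocytes, stood at 109 ± 58.9 CPM in CCD 841 CoN (SD, n = 3 libraries) and 0.0867 ± 0.0981 in the cancer lines (SD, n = 12 libraries). The growth factor CSF1 stood at 192 ± 10.6 against 2.80 ± 2.50 CPM and the chemokine CXCL8 at 190 ± 26.7 against 4.49 ± 5.36 CPM. PTX3, a secreted pattern recognition protein, stood at 19.2 ± 1.96 against 0.0531 ± 0.0964 CPM. TNFAIP8 (34.5 ± 14.2 against 6.89 ± 0.845 CPM), CXCL2 (7 ± 8.64 against 0.272 ± 0.399 CPM) and CCL20 (2.78 ± 3.23 CPM against no count) went the other way. Fibroblast markers, given above, moved with this list, and their part in it was not tested.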

How the data were processed

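The authors deposited 1 table of raw counts, 17113 protein-coding genes by 31 libraries. Per the labels, libraries came from a stranded KAPA kit that removes ribosomal RNA. The submitters' processing notes name STAR, featureCounts and the build hg19. Versions and the strand setting are not given in the sources used here. Whole-number counts per library ranged from 9688765 to 56741879.

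The test was the quasi-likelihood F-test of edgeR 4.0.16 under R 4.3.3, after TMM scaling and the filterByExpr filter. The 15 unmixed libraries were fitted together (14452 genes tested), and the 16 mixtures with terms for line and percentage (13212 genes). SE is the log2 fold change divided by the root of F. After a mean CPM, ± is the SD over libraries. For the 4 cancer lines together it mixes the spread between lines with that between libraries. CPM is per library total. Alternatives were DESeq2 1.42.0, other scalings, no filter, only the compared groups, a replicate block, the 0.1% mixtures as control, and each library or line left out. CCD 841 CoN replicate 1 as the only control, the block within cancer lines, and levels per kilobase with a library left out, were chosen after seeing the data.

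Replicate numbers paired the cancer lines (same-number residuals correlated at 0.175 to 0.543 in 18 pairs, each best with its own number) but not CCD 841 CoN (-0.0406 to 0.0218 in 12 pairs). On simulated counts the fit recovered 71% of 4-fold and 3% of 2-fold changes for LoVo against CCD 841 CoN, and 93 and 23% against the other 3 lines. The simulation changed 200 of 17113 genes, gave all genes 1 common spread, and counted recovery without the 2-fold limit. In the data 48% of genes were called for LoVo against CCD 841 CoN. These shares therefore do not give the recovery of the calls reported above.

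Values per library are given for members at 10 CPM or more in a line, or called in the mean of the 4 lines at 1 CPM or more. Other genes are those with the largest changes in their list, at most 4, at 10 CPM or more in the higher group, and those called against it. In lists with 7 or fewer called genes all were named, a choice made after the values were seen. Members and lists were chosen with earlier results of these data known. Exon lengths and overlaps came from GENCODE v29 (GRCh38), and windows from RefSeq (GRCh38.p14). No coordinates were converted. The level of a leukocyte marker is not reported here.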

Additional observations from a re-analysis of the deposited data

Results flagged for a closer look

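TNFRSF14 and TNFRSF1B went in opposite directions in different cancer lines when each was compared with CCD 841 CoN, and the difference between the lines was itself tested. TNFRSF14 was higher in HT-29 (1.46) and lower in HCT 116 (-11.36), a difference of 12.82 ± 0.68 on the log2 scale (edgeR, adjusted p = 1.65e-08). HCT 116 had no count of it, so this fitted size is no bound.

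TNFRSF1B was higher in LoVo (1.99) and LS1034 (2.89) and lower in HT-29 (-7.76) and HCT 116 (-6.23). The difference was 9.75 ± 0.89 between LoVo and HT-29 (adjusted p = 1.18e-06) and 8.23 ± 0.78 between LoVo and HCT 116 (adjusted p = 1.27e-06). It was 10.65 ± 0.91 between LS1034 and HT-29 (adjusted p = 5.17e-07) and 9.13 ± 0.81 between LS1034 and HCT 116 (adjusted p = 3.87e-07). For each gene, all 3 libraries of each line named here lay on 1 side of the CCD 841 CoN libraries.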

How the results depend on the processing

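With CCD 841 CoN replicate 1 as the only control, members called in LS1034 went from 15 to 9, and in the 10% mixtures DESeq2 called 5 members where edgeR called 3. With 1 line left out, the 10% mixtures gave 1 to 3 calls and the 50% mixtures 14 to 16. With 1 library left out, calls ran from 19 to 22 in the mean of the 4 lines, 14 to 18 in LoVo, 14 to 17 in LS1034, 17 to 19 in HT-29 and 14 to 18 in HCT 116, against the other 3 lines from 9 to 11, 11 to 13, 12 to 14 and 13 to 16 in the same order, and over the 6 pairs from 72 to 77. Without HT-29 replicate 2, TNFSF18 in HT-29 against the other 3 lines reversed from 3.54 to -1.19 (range -1.19 to 4.10 over the libraries left out), and so did CD40 in LoVo against HT-29, from -4.96 to 1.67 (range -6.61 to 1.67). The cause was not tested. The 240 member results followed were those called in the main fit, and all tested members in the mean of the 4 lines. Of these, 169 kept direction and call in all alternatives run. In 5100 recomputed values, 190 lost the call, 18 gained one and 2 reversed. A gained call could be recorded only in the mean of the 4 lines, so losses and gains are not comparable. Under the replicate block the call of TNFRSF25 in the mean of the 4 lines was lost (1.54), and so were CD40 in LoVo against HT-29 (-4.40) and, with cancer lines only, TNFSF18 in HT-29 (2.62) and TNFSF12 in LS1034 (-2.78) against the other 3, and TNFSF12 in LS1034 against HT-29 (-3.02). The block changed no other call among the 240 results. TNFRSF10B in the mean of the 4 lines passed the 2-fold limit with DESeq2 (-1.12). Members under 1 CPM were limited by depth: 3 counts over the 3 libraries of a line correspond to 0.0399 CPM in HCT 116 and up to 0.0652 CPM in CCD 841 CoN.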

Other observations

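Of 5 superfamily genes outside the symbol rule, EDA and EDAR were higher in the mean of the 4 lines, FAS and EDA2R were lower, and FASLG was not called (80% called, beside 47.1% of all genes). FAS, the death receptor of Fas ligand, stood at 67.9 ± 8.36 CPM in CCD 841 CoN (SD, n = 3), 52.9 ± 8.93 in LoVo, 29.7 ± 16.1 in HCT 116, 8.16 ± 1.12 in HT-29 and 5.66 ± 1.08 in LS1034 (mean log2 fold change -2.33 ± 0.24, SE, edgeR adjusted p = 4.59e-07). EDA2R, a receptor of ectodysplasin A2, stood at 18.5 ± 4.68 CPM in CCD 841 CoN and 0.0890 ± 0.105 CPM over the cancer libraries (n = 12). EDAR, the ectodysplasin receptor of skin appendages, had no count in CCD 841 CoN and 14.0 ± 4.27 CPM in LS1034, 5.82 ± 5.05 in LoVo, 0.881 ± 0.910 in HCT 116 and 0.143 ± 0.127 in HT-29.

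Among 10 genes of death signalling, CASP8, the initiator caspase below the death receptors, had 62.3 ± 11.7 CPM over the cancer libraries (SD, n = 12) and 12.3 ± 2.07 CPM in CCD 841 CoN (log2 fold change 2.02 ± 0.21, SE, adjusted p = 4.85e-07). CASP10, its paralogue, and XIAP, an inhibitor of caspases, were also higher, and none was lower: 30% of the list was higher, close to the 24.8% of all genes. RIPK3, the kinase of necroptosis, had no count in HCT 116 and CCD 841 CoN, beside 9.31 ± 0.992 CPM in HT-29, 7.70 ± 0.540 in LS1034 and 2.69 ± 1.38 in LoVo.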
